A study of Mus musculus with 6 samples.

Results

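The 10 genes described here are the MiT/TFE transcription factors Tfeb, Tfe3 and Mitf, the folliculin complex genes Flcn, Fnip1 and Fnip2, the Rag GTPase genes Rraga, Rragc and Rragd, and Gpnmb. They were chosen by symbol, all 10 were found among the 30281 gene symbols of the deposited tables, and their levels were read in all 6 mouse RNA-Seq libraries. Mouse embryo fibroblasts (MEFs) of genotype Tsc2-/- p53-/- and of genotype Tsc2+/+ p53-/- gave 1 library each and are labelled as receiving no treatment. MKOC and TJ are 2 kidney epithelial cell lines of the mouse, both labelled Tsc2-null, and the labels describe TJ as derived from a secondary tumor in C57BL6 mice. Each kidney line gave 1 library of cells left untreated (diluent) and 1 library of cells given 100 nM rapamycin, an inhibitor of mTORC1, for 18 hours. The labels give the same protocol, serum-free medium with diluent or rapamycin, for all 6 libraries, and whether it was applied to the MEFs is not stated. Each genotype of MEF is a single cell line, so the effect of Tsc2 and any other difference between those lines cannot be told apart, and the 2 kidney lines are the only replicates of the rapamycin comparison. No kidney line labelled Tsc2+/+ is among the libraries.

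TFEB, TFE3 and MITF are helix-loop-helix factors that bind E-box sequences in the promoters of lysosomal and autophagy genes. At the lysosome, heterodimers of RagA or RagB with RagC or RagD bring the factors to mTORC1, which phosphorylates them and keeps them in the cytoplasm, and the FLCN-FNIP complex is the GTPase-activating protein for RagC and RagD. TSC2 restrains mTORC1 through Rheb, and GPNMB, a transmembrane glycoprotein of lysosomes and melanosomes, is a known target of the MiT/TFE family. These libraries measured poly(A) RNA alone, so the phosphorylation and the location of the factors were not measured.

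Levels are given in TPM, a transcript's share of all transcripts in its library after correction for length. Library totals ran from 22887020 to 37505004 estimated counts. Tsc2 was at 22.6 TPM in Tsc2+/+ MEFs, 10.5 TPM in Tsc2-/- MEFs, 49.1 and 44.0 TPM in untreated MKOC and TJ cells, and 19.5 and 19.1 TPM after rapamycin. Tsc2 RNA was therefore present in every library labelled Tsc2-/- or Tsc2-null, which does not show whether a functional protein was made. Trp53 was at 26.3 and 28.5 TPM in the MEFs labelled p53-/-. The cell type markers followed the labels in sum: 8 fibroblast markers added up to between 1824 and 2502 TPM in the MEFs and between 7.73 and 52.0 TPM in the kidney lines, and 9 kidney epithelial markers added up to between 1461 and 2502 TPM in the kidney lines, although Epcam was at or near 0 there. In the fibroblasts these 9 markers summed to 0.253 TPM with the Tsc2+/+ genotype and 77.6 TPM with Tsc2-/-, mainly Krt19 (55.6 TPM) and Krt18 (20.6 TPM). The Tsc2-/- MEF library also held 7 of 7 mesothelial markers at 1 TPM or more, with a sum of 505 TPM against 2.66 TPM in Tsc2+/+ MEFs. The part of these marker differences in the MEF results was not tested. In bulk RNA, fewer cells of a type and less RNA per cell cannot be told apart.

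Promoters were searched for the element that the MiT/TFE factors bind. The element was the E-box CACGTG, which reads the same on both strands, in RefSeq promoter windows (GRCm38.p6) from 250 bases before to 50 bases after a gene's start. All 10 genes matched, with 15 windows, since Mitf and Tfeb have 3 annotated starts each and Tfe3 has 2. Of the 10 genes, 2 held a CACGTG, Fnip1 and Rragc, against 8.09% of all 27025 genes with a window and 7.15% of all 32851 windows. In both genes it sat inside the 7-base form TCACGTG, read on the opposite strand as CACGTGA and found in 3.77% of all windows, and neither held the 8-base palindrome TCACGTGA, found in 0.974%. No member window held the M-box core TCATGTG on either strand, found in 3.77% of all windows. The 250 bases before the start of Fnip1 and Rragc are shown because they hold the E-box, in capitals, and those of Gpnmb because its level varied most. The Fnip1 stretch is chr11:54437929-54438178 (plus strand) with the E-box starting 75 bases before the start, the Rragc stretch is chr4:123917183-123917432 (plus strand) with the E-box starting 112 bases before it, and the Gpnmb stretch is chr6:49036268-49036517 (plus strand), without one.
Fnip1: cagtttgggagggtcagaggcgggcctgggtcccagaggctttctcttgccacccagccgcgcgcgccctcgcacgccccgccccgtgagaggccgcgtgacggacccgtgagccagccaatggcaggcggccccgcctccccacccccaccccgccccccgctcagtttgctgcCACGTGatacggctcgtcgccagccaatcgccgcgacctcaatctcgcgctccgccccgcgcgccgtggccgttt
Rragc: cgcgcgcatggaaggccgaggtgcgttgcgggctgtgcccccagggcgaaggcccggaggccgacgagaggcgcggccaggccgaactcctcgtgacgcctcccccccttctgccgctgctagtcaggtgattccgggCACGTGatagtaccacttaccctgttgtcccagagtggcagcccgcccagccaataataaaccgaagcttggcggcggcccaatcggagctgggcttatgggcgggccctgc
Gpnmb: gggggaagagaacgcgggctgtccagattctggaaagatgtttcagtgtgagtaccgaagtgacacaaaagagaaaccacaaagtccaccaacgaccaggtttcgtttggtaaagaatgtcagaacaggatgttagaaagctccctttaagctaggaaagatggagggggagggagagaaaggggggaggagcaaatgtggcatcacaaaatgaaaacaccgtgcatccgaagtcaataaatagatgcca
A match is a string of letters and does not show that a factor was bound there in these cells.

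Over the 6 libraries, Gpnmb had the widest range, from 11.4 to 398 TPM, or 35.0-fold. Rragd (7.50-fold), Tfeb (5.90-fold) and Flcn (5.88-fold) followed. Rraga, at 59.8 to 72.6 TPM, had the narrowest, 1.21-fold. In every kidney library the 3 highest members were Gpnmb, Rragc and Rraga in that order and the lowest was Mitf. In Tsc2+/+ MEFs Gpnmb was also the highest, at 98.3 TPM, but in Tsc2-/- MEFs it was 8th of 10, and Rragc was the highest at 145 TPM. The plot of levels by library shows these orders beside the counting error. For Mitf the counting intervals of the 4 kidney libraries overlapped, so those libraries could not be ranked.

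**Figure D1:**
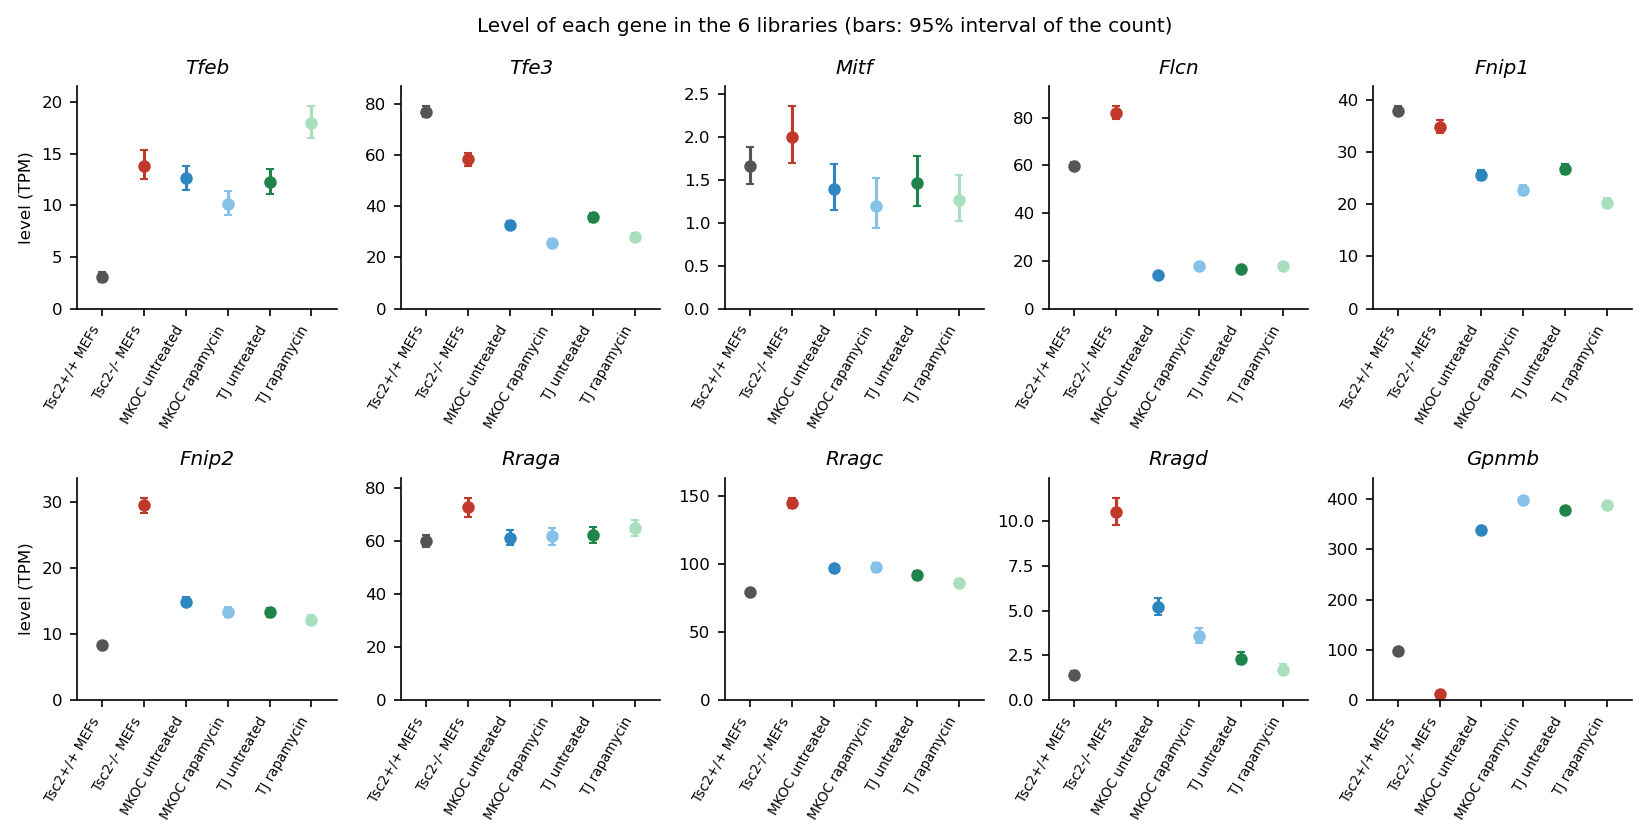
Level of each of the 10 genes (TPM, linear axis from 0, a separate axis for each gene) in the 6 libraries, with bars for the 95% exact Poisson interval of the count, which covers counting error only. Gpnmb lies between 338 and 398 TPM in the 4 kidney libraries, at 98.3 TPM in Tsc2+/+ MEFs and at 11.4 TPM in Tsc2-/- MEFs.

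To ask what differed with loss of Tsc2, the Tsc2-/- MEF library was set against the Tsc2+/+ MEF library. Rragd, Tfeb and Fnip2 were higher in Tsc2-/- MEFs by more than 2-fold, and Gpnmb was lower by more than 2-fold. With 1 added to each TPM value the differences were 4.80-fold for Rragd, 3.67-fold for Tfeb and 3.26-fold for Fnip2, and 8.04-fold in the opposite direction for Gpnmb. There is 1 library per genotype, so these differences have no replicate check and no p-value. Of the 10 genes, 3 were at least 2-fold higher and 1 at least 2-fold lower, against 25.2% and 5.18% of the 12771 genes with at least 1 TPM in either library. The median of all these genes was itself shifted by 0.45 on the log2 scale, so each value below is also given relative to that median. Where TPM values were scaled to a median ratio of 1, the split of all genes past 2-fold went from 83.0% higher to 65.8% higher. The same 3 and 1 members remained past 2-fold, against 15.8% of all genes higher and 8.21% lower.

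Among the transcription factors, Tfeb was at 3.05 TPM (162 estimated counts) in Tsc2+/+ MEFs and 13.8 TPM (384 estimated counts) in Tsc2-/- MEFs. The log2 fold change was 1.87, or 1.42 above the median of all genes, and the 2 intervals of the counts, 2.60 to 3.56 TPM and 12.5 to 15.3 TPM, did not overlap. Tfe3 was the most abundant of the 3 factors in both, at 76.8 TPM in Tsc2+/+ and 58.2 TPM in Tsc2-/- MEFs (log2 fold change -0.39, or -0.85 relative to the median of all genes). Mitf, the factor best known from melanocytes, was lowest, at 1.66 and 2.01 TPM (log2 fold change 0.18, or -0.28 relative to that median, and -0.07 when scaled to a median ratio of 1). Summed over the 3 factors, Tfeb made up 3.74% of the TPM in Tsc2+/+ MEFs and 18.7% in Tsc2-/- MEFs, and Tfe3 made up 94.2% and 78.6%.

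In the folliculin complex, Fnip2 was at 8.34 TPM in Tsc2+/+ and 29.5 TPM in Tsc2-/- MEFs, a log2 fold change of 1.71. Its paralog Fnip1 was at 37.8 and 34.8 TPM (log2 fold change -0.12, or -0.57 relative to the median of all genes). FNIP1 and FNIP2 are alternative partners of folliculin, and the TPM ratio of Fnip1 to Fnip2 was 4.54 in Tsc2+/+ MEFs and 1.18 in Tsc2-/- MEFs. Flcn, which encodes folliculin itself, was at 59.6 and 82.0 TPM, and its log2 fold change of 0.45 equalled the median of all genes. Fnip2 stood 1.25 above that median on the log2 scale.

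Of the Rag GTPases, Rragd was at 1.40 TPM (214 estimated counts) in Tsc2+/+ MEFs and 10.5 TPM (751 estimated counts) in Tsc2-/- MEFs, a log2 fold change of 2.26, or 1.81 above the median of all genes. Rragc, its close paralog, was at 79.5 and 145 TPM (log2 fold change 0.86, or 0.40 above that median), below 2-fold. RagC and RagD fill the same position in the heterodimer. Rragc outnumbered Rragd by 56.6 to 1 in Tsc2+/+ MEFs and 13.7 to 1 in Tsc2-/- MEFs, as ratios of TPM. Rraga, a single-exon gene whose product is the other partner in the heterodimer, was at 59.8 and 72.6 TPM, a log2 fold change of 0.28, or -0.18 relative to that median, that became -0.11 when scaled to a median ratio of 1. Rragc was the only member with exons that overlap those of another annotated gene, an antisense gene listed at or below 0.15 TPM in all 6 libraries.

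Gpnmb was at 98.3 TPM (11196 estimated counts) in Tsc2+/+ MEFs and 11.4 TPM (636 estimated counts) in Tsc2-/- MEFs. The log2 fold change was -3.01, or -3.46 relative to the median of all genes, and only 0.517% of the 12771 genes had a lower one. With 1 added to TPM, Gpnmb was the only one of the 10 that passed the 8-fold size used in the study. With 5 TPM added its log2 fold change was -2.66, short of 8-fold. Gpnmb thus stood on the other side of 0 from Tfeb and Rragd in these 2 lines. Macrophages and osteoclasts also express Gpnmb, and 8 of their markers added up to 2.96 TPM in Tsc2+/+ and 22.1 TPM in Tsc2-/- MEFs. Acp5 (0.055 and 12.6 TPM) made up most of that difference. Cd68 was also higher, at 1.69 and 6.78 TPM, as was Csf1r, at 0.016 and 1.77 TPM. Lyz2 was at 0.740 and 0.119 TPM, Ptprc, Itgam and Aif1 were at 0.46 TPM or less, and Adgre1 was at 0 in both. The part of such cells in the Gpnmb difference was not tested. Of 7 melanocyte markers, Mlana alone passed 1 TPM, at 4.53 TPM in Tsc2-/- MEFs. Transcripts shorter than 300 bases took 20.9% of the TPM in Tsc2+/+ MEFs and 7.12% in Tsc2-/- MEFs, and when TPM was recomputed without them the 4 members stayed past 2-fold in the same directions.

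**Figure D2:**
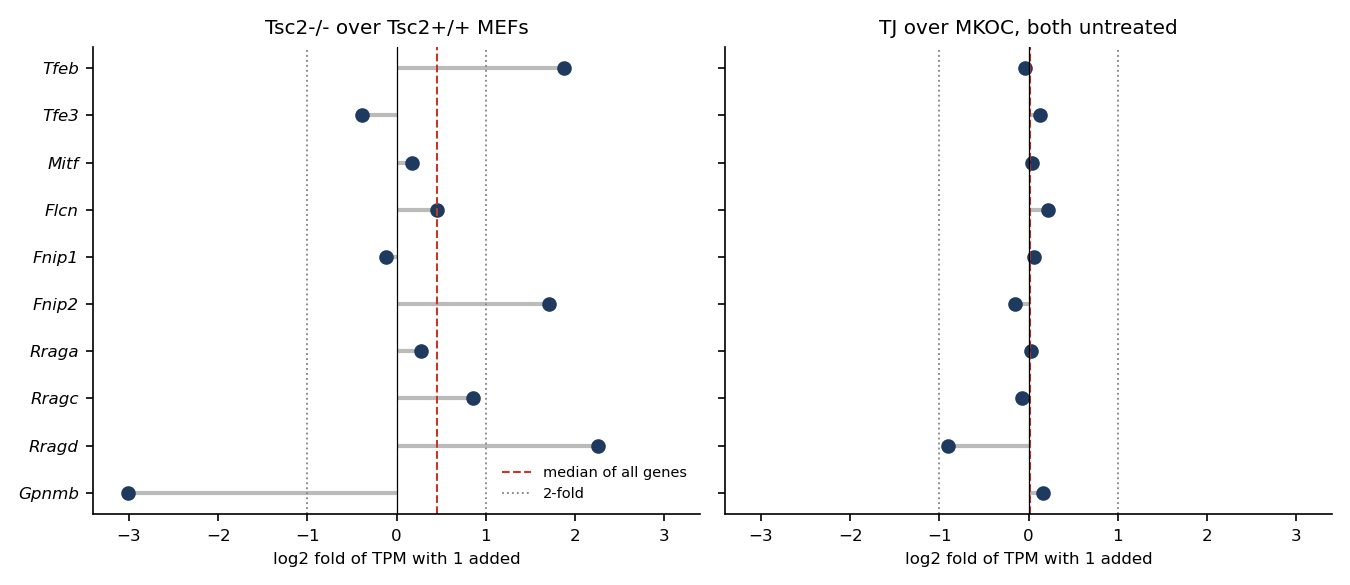
Log2 fold change of TPM with 1 added for the 10 genes in Tsc2-/- over Tsc2+/+ MEFs (left) and in untreated TJ over untreated MKOC cells (right), 1 library on each side and no error bars. The dashed line is the median of all genes and the dotted lines are 2-fold, and 4 genes lie past 2-fold in the MEFs and none in the kidney lines.

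The transcripts behind these sums differed between libraries. The tables hold 61 transcripts of the 10 genes, of which 60 are in GENCODE M21 (GRCm38) under the same symbol. Tfeb lies on chromosome 17 (47737030 to 47792419, plus strand) and has annotated starts far upstream (Tfeb-202) and within its later part (Tfeb-201 and Tfeb-212). In Tsc2-/- MEFs, Tfeb-202 took 69.2% of the estimated counts of Tfeb and Tfeb-201 took 0%. In untreated MKOC and TJ cells, Tfeb-201 took 48.4% and 50.7%, and it stood at 5.31 and 5.16 TPM against 0.30 TPM or less in the MEFs. Tfeb-202 took 30.1% in untreated and 0% in rapamycin-treated MKOC cells, and 12.1% and 36.3% in TJ cells, in opposite order. Such shares rest on how Kallisto divides reads among transcripts that share most of their exons, and no error of that division is in the files used here.

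Mitf lies on chromosome 6 (97807052 to 98021349, plus strand), and Mitf-202, from its most upstream annotated start, took 100% of its estimated counts in both MEF libraries and between 81.4% and 90.4% in the kidney lines. Mitf-201, from a start much further downstream, was at 0.38 TPM or less in every library. Rragd lies on chromosome 4 (32983037 to 33022180, plus strand). Its transcript Rragd-203 took all counts in Tsc2+/+ MEFs, whereas Rragd-202 took 27.7% in Tsc2-/- MEFs, at 3.26 TPM against 0.13 TPM or less in every other library. Taken by its most abundant transcript alone, the log2 fold change of Rragd between the MEFs was 1.78 and that of Tfeb 2.20. Gpnmb, on chromosome 6 (49036546 to 49070929, plus strand), has 1 transcript in the tables. Its estimated counts were not whole numbers in the MEFs, so some of its reads were shared with transcripts of other genes there. Of the other members, Rragc (123917446 to 123936997, plus strand) and Rraga (86575668 to 86577285, plus strand) share chromosome 4 with Rragd. Flcn (59791408 to 59810016, minus strand) and Fnip1 (54438199 to 54518235, plus strand) are on chromosome 11, Fnip2 is on chromosome 3 (79455974 to 79567796, minus strand) and Tfe3 on chromosome X (7762560 to 7775202, plus strand), and all 10 are annotated as protein coding.

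**Figure D3:**
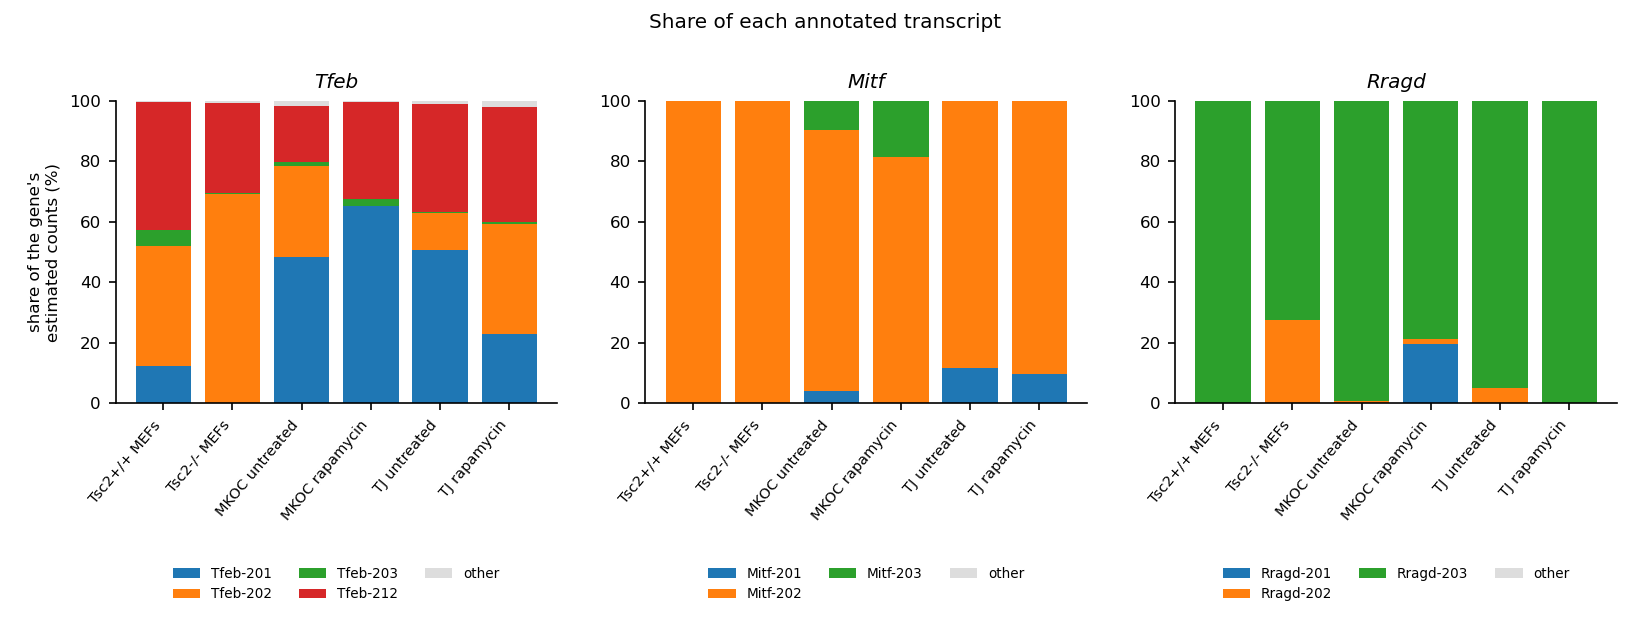
Share of the estimated counts of Tfeb, Mitf and Rragd (percent, stacked to 100) taken by each annotated transcript in each of the 6 libraries, with transcripts never above 3% pooled as other. Tfeb-201 is the blue part of the Tfeb bars, 48.4% in untreated MKOC cells and 0% in Tsc2-/- MEFs, and Rragd-202 is the orange part of the Rragd bars, 27.7% in Tsc2-/- MEFs.

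Between the kidney lines, untreated TJ cells were set against untreated MKOC cells, again with 1 library on each side. With 1 added to TPM, none of the 10 genes was 2-fold higher or lower, against 2.01% and 0.887% of 11950 genes. Rragd came nearest. It was at 5.23 TPM (508 estimated counts) in MKOC and 2.33 TPM (201 estimated counts) in TJ cells, a log2 fold change of -0.90 with 1 added, and a TPM ratio 2.25-fold lower in TJ without it (95% counting interval 1.91 to 2.66). With 0.1 or 0.5 TPM added, or as CPM, its log2 fold change passed 2-fold, at -1.13, -1.02 and -1.08. The other 9 members lay between -0.15 and 0.22 on the log2 scale, Fnip2 being the lowest and Flcn the highest. Gpnmb was at 338 TPM in MKOC and 379 TPM in TJ cells. Csf1r, a receptor of macrophages that is one of their 8 markers, was at 11.3 and 25.0 TPM in the same libraries, while Adgre1 and Ptprc were at 0.05 TPM or less in both.

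To ask whether blocking mTORC1 changed these genes, rapamycin-treated and untreated cells of both kidney lines were compared in edgeR (quasi-likelihood test, cell line in the model, p-values adjusted by Benjamini-Hochberg over all 12952 genes tested). Rragd fell, and it was the only one of the 10 genes called at an adjusted p below 0.05. It went from 5.23 to 3.58 TPM in MKOC cells and from 2.33 to 1.70 TPM in TJ cells, a log2 fold change of -0.50 (SE 0.16, adjusted p = 0.036). So 1 of 10 was lower, against 17.4% of all genes, and 0 of 10 were higher, against 17.5%. At an unadjusted p below 0.05 the counts were 3 lower and 0 higher with edgeR, 1 and 0 with DESeq2, and 2 and 0 with limma on log2(TPM + 1). Of all genes, 22.3% were lower and 23.1% higher at that threshold with edgeR, 16.7% and 15.9% with DESeq2, and 20.2% and 21.3% with limma. After adjustment DESeq2 and limma called none of the 10. The median of the 10 log2 fold changes was -0.15, and that of all genes tested was 0.02. The only replicates are 2 lines with 1 library for each line and treatment, and edgeR moderates the spread of each gene with that of all genes (10.1 degrees of freedom in total), so the p-values rest mostly on the spread shared over genes.

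The edgeR call on Rragd depended on the line being in the model. Without the line as a covariate its log2 fold change was -0.53 with an adjusted p of 0.541. With 1 library left out the line was not in the model either, so the estimate mixed treatment with line. Such fits cannot show whether the call rests on a single library. The log2 fold change of Rragd was then -1.17 without the treated MKOC library and -1.01 without the untreated TJ library. It was -0.08 without the treated TJ library and 0.20 without the untreated MKOC library, which has the highest Rragd level of the 4. Within each line, the normalized count of Rragd was 1.47-fold lower with rapamycin in MKOC and 1.36-fold lower in TJ cells. The counting intervals of both ratios excluded 1. Tfe3, Fnip1 and Fnip2, lower in both lines, and Gpnmb, higher in both, also had intervals that excluded 1 and were not called. These intervals cover counting error only. The Rragd level in treated MKOC cells, 3.58 TPM, was still above that in untreated TJ cells, 2.33 TPM. The treated and untreated libraries thus overlap when the lines are pooled. For scale, Tsc2 had a log2 fold change of -1.27 (SE 0.10, adjusted p = 2.28e-05).

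For Tfeb, the normalized counts of the 2 lines moved in opposite directions, and the counting intervals of both excluded no change. It went from 12.6 to 10.2 TPM in MKOC cells (467 and 285 estimated counts) and from 12.2 to 18.0 TPM in TJ cells (388 and 538 estimated counts). On the scale of normalized counts this was -0.35 in MKOC and 0.46 in TJ cells (log2), and the counting intervals of the ratios were 0.673 to 0.908 and 1.20 to 1.57. The fitted change over both lines was 0.06 (SE 0.19, adjusted p = 0.837), with a 95% interval from -0.36 to 0.48. Tfe3 was lower in both lines, from 32.6 to 25.7 TPM in MKOC and from 35.7 to 27.9 TPM in TJ cells, with a log2 fold change of -0.29 that did not pass the threshold (SE 0.11, adjusted p = 0.058). Mitf went from 1.40 to 1.20 TPM and from 1.46 to 1.27 TPM (log2 fold change -0.23, SE 0.25, adjusted p = 0.502), and with 70 to 110 estimated counts a library its 95% interval ran from -0.79 to 0.32. Tfeb made up 24.8% of the summed TPM of the 3 factors in untreated and 38.1% in treated TJ cells, against 27.0% and 27.4% in MKOC cells.

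Fnip1 was lower with rapamycin in both lines, from 25.6 to 22.7 TPM in MKOC and from 26.7 to 20.3 TPM in TJ cells, but its log2 fold change of -0.29 (SE 0.11) had an adjusted p of 0.056. Fnip2 gave -0.23 (SE 0.11, adjusted p = 0.132). Flcn gave a positive value, 0.21 (SE 0.12, adjusted p = 0.201), from 13.9 to 17.7 TPM in MKOC and from 16.4 to 17.9 TPM in TJ cells. None of the 3 genes of the complex passed the threshold, and their 95% intervals on the log2 scale ran from -0.53 to -0.06 for Fnip1, from -0.47 to 0.02 for Fnip2 and from -0.06 to 0.48 for Flcn.

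Rragc, at 96.8 and 97.5 TPM in MKOC and 91.9 and 86.1 TPM in TJ cells, had a log2 fold change of -0.07 with a 95% interval from -0.29 to 0.14 (adjusted p = 0.598). Rraga had 0.03 with an interval from -0.21 to 0.26 (adjusted p = 0.863). Gpnmb was at 338 and 398 TPM in MKOC cells and at 379 and 389 TPM in TJ cells, untreated and treated. Its log2 fold change was 0.13 (SE 0.11, adjusted p = 0.395) and the 95% interval, from -0.11 to 0.37, includes 0. Of the macrophage and osteoclast markers, 2 of 8 passed 1 TPM in the kidney lines and they differed in direction. Csf1r was at 11.3 TPM in untreated and 17.7 TPM in treated MKOC cells and at 25.0 and 30.3 TPM in TJ cells, whereas Cd68 was at 7.08 and 5.33 TPM and at 8.01 and 4.48 TPM, and the part of cells with macrophage markers in the Gpnmb level was not tested. Over the 4 kidney libraries the 8 markers of macrophages and osteoclasts added up to between 19.2 and 36.4 TPM, and Adgre1 was at 0 or 0.02 TPM.

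**Figure D4:**
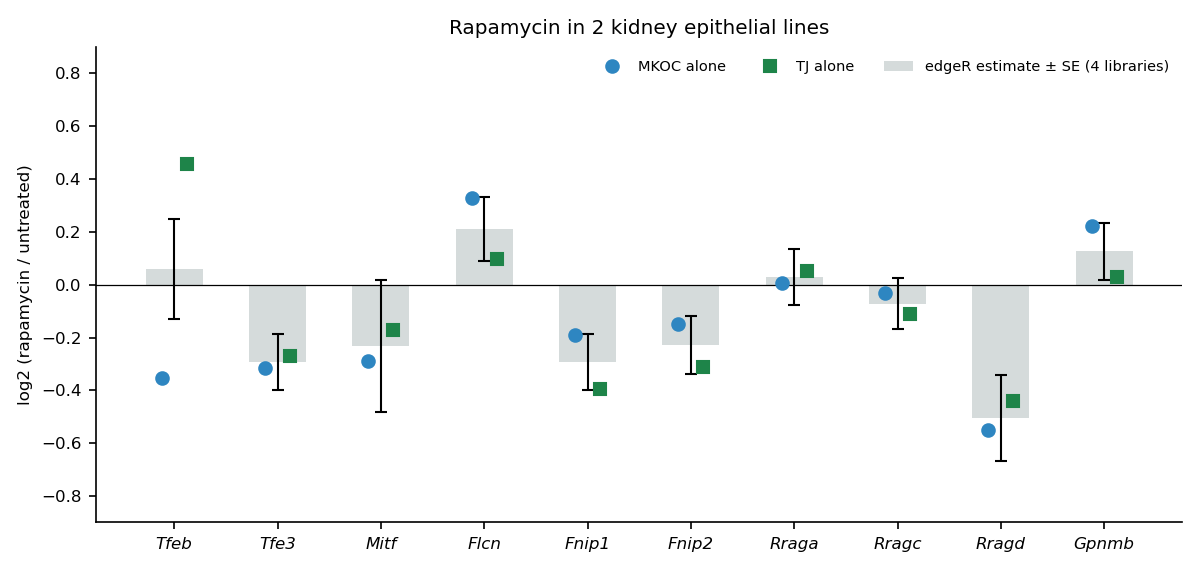
Log2 ratio of rapamycin-treated to untreated cells for the 10 genes, with the edgeR estimate over both lines as a bar with its standard error (4 libraries) and each line's own difference in log2 normalized counts as a point. The points of Tfeb lie at -0.35 (MKOC) and 0.46 (TJ), and the bar of Rragd, at -0.50, is the only one called at an adjusted p below 0.05.

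The wider pathway was read from 5 lists of genes. Of their 73 genes tested, rapamycin raised 8 and lowered 18 by edgeR at an adjusted p below 0.05, and each list's counts are to be read against the 17.5% of all genes that rose and the 17.4% that fell. Without the cell line in the model the counts were 2 and 5, against 559 and 716 of all 12952 genes. Among 12 partners of the Rags tested (Ragulator subunits, mTORC1 subunits, Rheb and others) 2 fell and 0 rose, the Ragulator subunit Lamtor3 (log2 fold change -0.46, adjusted p = 0.0096) and Rheb, the GTPase that TSC2 acts on (-0.49, adjusted p = 0.0046). Among 16 genes of the GATOR and KICSTOR complexes and the amino acid sensors, 4 fell and 1 rose. The leucine sensor Sesn2 had the largest change of the list, -1.40 (adjusted p = 8.74e-05), from 17.2 to 7.80 TPM in MKOC and from 24.3 to 7.88 TPM in TJ cells, and Sesn3, Seh1l and Sec13 fell by 0.65, 0.52 and 0.44.

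Among 28 targets of TFEB (the CLEAR network of lysosomal and autophagy genes), 5 rose and 7 fell with rapamycin, against 17.5% and 17.4% of all genes, and the median was -0.10. The autophagy genes Wipi1 (1.13, adjusted p = 0.00015) and Map1lc3b (0.78, adjusted p = 0.00038) and the lysosomal enzyme genes Ctsf (1.52, adjusted p = 0.0068) and Sgsh (0.49, adjusted p = 0.017) rose. Ctsf (SE 0.34) was low, at 1.19 and 2.61 TPM in untreated and treated MKOC cells and 0.710 and 2.83 TPM in TJ cells. Ppargc1a (-0.76), the autophagy receptor gene Sqstm1 (-0.67), the lysosomal alpha-galactosidase gene Gla (-0.67) and Uvrag (-0.53) fell. Of the 21 of these 28 genes with a promoter window, 10 (47.6%) held CACGTG, against 8.09% of all genes with a window. CACGTG is the sequence feature by which this network was first described. Of the 3 tested genes that mark MiT-driven tumors, Sqstm1, also on the CLEAR list, alone passed the threshold and fell, and Ctsk and Mlana did not pass the filter on low counts. Among 15 genes of calcineurin, 14-3-3 proteins and other regulators of TFEB, 2 rose, Map4k3 (0.46) and the 14-3-3 gene Ywhah (0.30), and 5 fell, among them Xpo1 (-0.34), Ywhag (-0.31) and Ppp3r1 (-0.30).

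In the MEFs, 12 of 28 CLEAR genes were at least 2-fold higher in Tsc2-/- cells and 0 were lower, against 25.2% and 5.18% of all genes, with a median log2 fold change of 0.94 against 0.45 for all genes. This count depended on the scaling. With TPM scaled to a median ratio of 1 it was 4 of 28 (14.3%, against 15.8% of all genes), while the median, 0.55, stood above that of all genes, 0.09. Ctsf was listed at 0 in Tsc2+/+ and at 10.2 TPM in Tsc2-/- MEFs, and Neu1 was at 24.1 and 66.9 TPM. Against the same 25.2%, 5 of 16 sensors and GATOR genes were 2-fold higher, with Sesn3 at 1.08 and 31.3 TPM, Sec13 at 74.9 and 308 TPM, and Gatsl2, listed as Castor2, at 4.53 and 19.1 TPM. Among the Rag partners 2 of 12 were 2-fold higher, Lamtor1 and Akt1s1, and among the regulators of TFEB 5 of 15, led by Ywhah at 58.2 and 240 TPM. With the scaling, against 15.8% of all genes, these counts were 4 of 16, 0 of 12 and 1 of 15. Of the 15 regulators, 1 was then at least 2-fold lower, against 8.21% of all genes. Of 4 genes that mark MiT-driven tumors, 1 was 2-fold higher, the melanocyte gene Mlana named above.

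**Figure D5:**
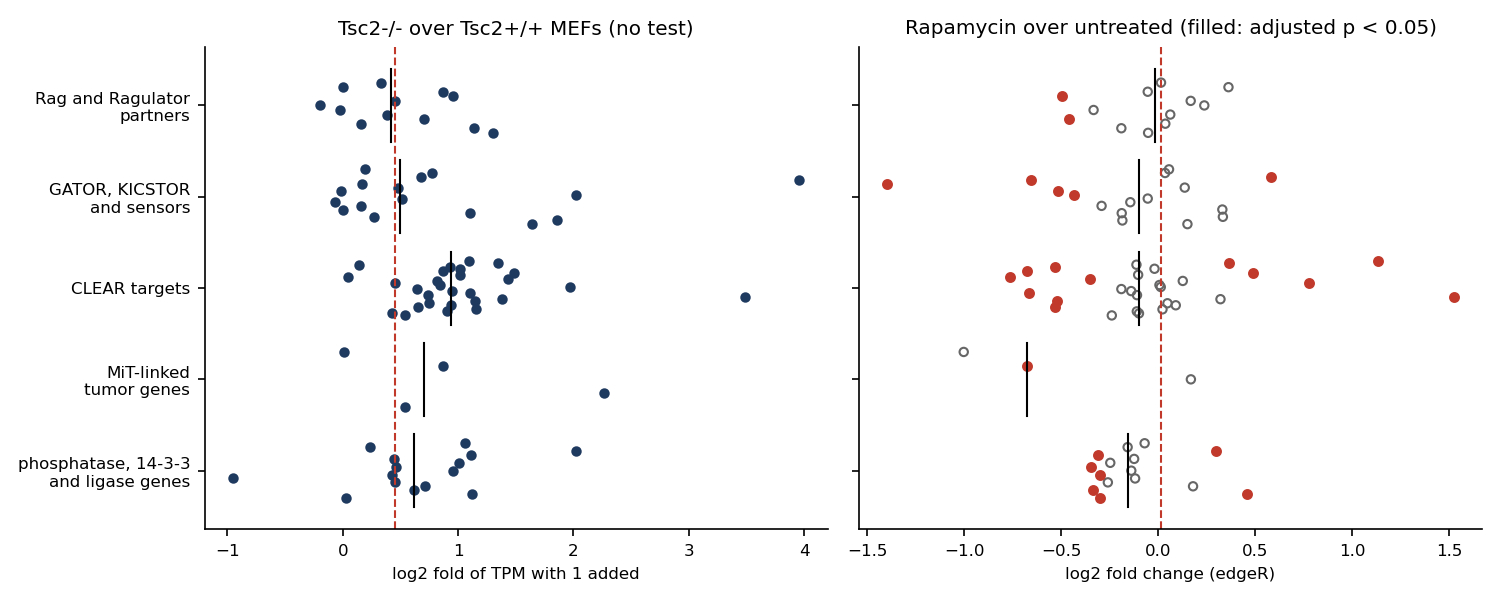
Log2 fold change of each gene of the 5 pathway lists in Tsc2-/- over Tsc2+/+ MEFs (left, genes with at least 1 TPM in either library, no test) and in rapamycin-treated over untreated kidney lines (right, edgeR, filled points at an adjusted p below 0.05). Black lines are list medians and the dashed line is the median of all genes, and the CLEAR genes have a median of 0.94 on the left and -0.10 on the right.

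Finally, the genes whose levels followed Gpnmb most closely over the 6 libraries were named by Pearson's r of log2(TPM + 1), among 11436 genes with at least 5 TPM in at least 1 library. Among them were Slc12a2 (r = 0.994), Gpr137b (0.993), Gm9732 (0.993) and Spn (0.992), and 8 genes were above 0.99. Gpr137b, which encodes a lysosomal membrane protein, was at 115 TPM in Tsc2+/+ MEFs, 61.2 TPM in Tsc2-/- MEFs and between 165 and 182 TPM in the kidney lines. With 6 libraries of which 4 are kidney lines and lie close together, r mostly ranks genes by the contrast of cell types and by the pair of MEF lines, and it is given as a description only.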

How the data were processed

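Poly(A)-selected stranded libraries were sequenced by the authors, who trimmed the reads and ran Kallisto (version and mouse reference not given in the sources used here). The deposited tables hold estimated counts and TPM for 88198 transcripts, and a fold change ratio per transcript by the authors, which was not used beyond its gene symbols. Both units were summed per symbol (30281 genes), and 1006 transcripts without a symbol (0.372% to 0.468% of counts) were left out. Estimated counts were rounded for edgeR 4.0.16 (filterByExpr, TMM, line as covariate). Lines pair the libraries by the labels, and deviations of the 2 libraries of a line from their treatment means had a correlation of 0.56 over 12952 genes. Fold changes between 2 libraries used TPM with 1 added. Intervals are 95% exact Poisson (levels) or Clopper-Pearson (ratios) and cover counting error only. A gene was named if it is a member, Tsc2, among the largest changes of a list past the threshold (4 for rapamycin, and 3 for MEFs at 10 TPM or more, in each direction), among the 5 genes most like Gpnmb, or a marker. Alternatives were DESeq2 1.42.0, limma 3.58.1, other normalizations, filters, pseudocounts and scalings, and each library left out. The members and lists were chosen with earlier results of these data known. Of 17 GATOR and sensor symbols, 16 were found. Some genes that this rule would name are not reported here. Steps were tested on simulated data. R 4.3.3 and Python 3.11.15 were used.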

Additional observations from a re-analysis of the deposited data

Results flagged for a closer look

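Tfeb is the result that calls for a second look. With rapamycin it moved one way in one kidney line and the opposite way in the other, and both counting intervals excluded no change. The log2 difference between treated and untreated cells was -0.35 in MKOC and 0.46 in TJ cells, so that the difference in TJ minus that in MKOC was 0.81. With 1 library for each line and treatment, this difference between the lines was not tested. Counting intervals leave out variation between libraries, and how many of all genes show such a pattern was not counted.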

How the results depend on the processing

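In MEFs, counts of 3 members higher and 1 lower held under other pseudocounts, both scalings, removal of short transcripts and the most abundant transcript. At 8-fold they were 0 and 1 with 1 TPM added, and with 5 TPM added Gpnmb fell short of 8-fold. Of 60 values of single members under these alternatives 56 kept their sign, the exceptions being Mitf and Rraga under scaling to a median ratio of 1 and as CPM, and all 60 did so between the kidney lines, where Rragd passed 2-fold with 0.1 or 0.5 TPM added and as CPM. For rapamycin, the 1 member called lower became 0 without the replicate block, with DESeq2 and with limma, and stayed 1 with upper-quartile factors and without the filter on low counts, where the adjusted p of Rragd was 0.049 and 0.013. With DESeq2 and limma it was 0.164 and 0.120, at log2 fold changes of -0.50 and -0.37. With each library left out in turn, the log2 fold change of Rragd ran from -1.17 to 0.198. The positive value was without the untreated MKOC library. In these fits the line was no covariate and a lone library was assumed to vary like the others. In the pathway lists, 8 genes higher and 18 lower became 2 and 5 without the replicate block. They became 5 and 13 with DESeq2 and 5 and 16 with limma. Of all 12952 genes, 2267 higher and 2259 lower became 559 and 716, 1466 and 1596, and 1799 and 1833 in the same order. List counts in the MEFs under other scalings were added after the data were seen. With 1 library per condition, no difference between the MEFs or between the lines has an error beyond counting.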
